A study of Mus musculus with 20 samples.

Results

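The cytosolic ribosomal proteins are the protein building blocks of the ribosome, and 88 of the 45802 gene entries of the table carried one of their names. Members were taken by symbol alone: names of the form Rpl or Rps with a number, Rplp0 to Rplp2 and Rpsa. No measured value entered the rule, apart from the leaving out of Rpl3, whose signal is divided between 2 entries. There were 52 large subunit and 36 small subunit members, and 84 of the 88 were high enough to be tested, among 11807 tested genes. The other members were Rpl10l, Rpl3l, Rpl39l and Rpl32l, for which the linear value reached 1 in fewer than 4 libraries. GENCODE lists 82 of the 88 with a coding sequence, and annotates the remaining 6 (Rps4l, Rps12l1, Rpl32l, Rpl6l, Rps3a2 and Rps3a3) as pseudogenes.

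Ribosomal proteins assemble on ribosomal RNA in the nucleolus, in near-equal amounts, to form the small subunit, which reads the mRNA, and the large subunit, which joins amino acids. Their mRNAs are short and abundant and, in mammals, most begin with a tract of pyrimidines at the cap, the terminal oligopyrimidine (TOP) element, through which the kinase mTOR controls their translation. The mouse genome also holds many processed pseudogenes, intronless copies of these mRNAs. The fetal liver is both a growing metabolic organ and the main site of blood formation.

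The libraries were bulk RNA-seq of whole livers from 20 C57BL/6 mouse fetuses at E17.5, after the dams had been fasted for 24 h. There were 4 fetuses in each of 5 groups, with 2 females and 2 males per group. In the first arm, fetuses heterozygous for Ppara, the gene of a nuclear receptor that drives fatty acid oxidation in fasting, came from heterozygous dams (HetDam_HetFetus) or from Ppara knockout dams (KODam_HetFetus), and knockout fetuses came from knockout dams (KODam_KOFetus). In the second arm, fetuses labelled Cpt2f/f, with floxed alleles of an enzyme of mitochondrial fatty acid import, came from Cpt2f/f dams (FloxDam_FloxFetus) or from Cpt2f/f dams that carried Albumin-Cre (Cpt2LKODam_FloxFetus), a transgene that directs the deletion to hepatocytes. All dams of the first arm therefore lacked at least 1 functional Ppara allele, and titles speak of wild type where the genotype labels say floxed. Values are log2, quantile-normalized by the authors, and it is not stated which quantity was log-transformed, so levels are not compared between genes of different length. A drop of an mRNA in whole liver could mean fewer cells that make it or less of it per cell, and bulk values cannot tell these apart.

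Ppara itself lay at 1.87 to 2.48 in the knockout fetuses, at 2.86 to 3.47 in HetDam_HetFetus and at 1.82 to 3.22 in KODam_HetFetus, on the log2 scale. Which exons these reads cover is unknown, so the Ppara entry is a weak check of the labels. Rpl3 and its pseudogene entry Rpl3-ps1 separated the genotypes further. Rpl3 lay at 9.07 to 9.27 in FloxDam_FloxFetus and 8.98 to 9.20 in Cpt2LKODam_FloxFetus, at 7.58 to 7.98 in HetDam_HetFetus and 8.07 to 8.29 in KODam_HetFetus, and at 3.79 to 4.49 in KODam_KOFetus. Rpl3-ps1 ran the other way, from 1.92 to 3.45 in both floxed groups, through 8.10 to 8.69 in both heterozygous groups, to 9.21 to 9.67 in the knockout fetuses. Neither gene overlapped between the labelled fetal genotypes. Rpl3 lies on chromosome 15 at 80077781 to 80083406, and Ppara lies on the same chromosome at 85734910 to 85806851 (RefSeq, GRCm38.p6). Added together, the Rpl3 and Rpl3-ps1 entries gave 8.90 to 9.21 in HetDam_HetFetus, 9.34 to 9.51 in KODam_HetFetus and 9.25 to 9.71 in KODam_KOFetus, and the fall of Rpl3 in knockout fetuses (log2 difference -4.03 from KODam_HetFetus, SE 0.13, adjusted p = 1.14e-13 by limma) was not seen in the sum.

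Near-identical copies were also found for many members. Names and sequence comparison (at least 95% identity over at least 80% of a coding sequence) linked 563 entries of the table to a member as copies, of which 546 had a value in some library. A 75-base window, the length of a read, was counted as shared where the same bases occur in a copy. All windows of the coding sequence were shared for 20 members, and none were shared for 11, among them Rps3, Rps21, Rps27l, Rpl8, Rpl32, Rpl41 and Rplp2 and the untested Rpl3l, Rpl10l and Rpl39l. The stretches below show what a read could and could not tell apart. Rps13, a small subunit protein whose gene lies on chromosome 7 (116331505 to 116334195, minus strand), and Rps13-ps2, on chromosome 7 (88530446 to 88530898, minus strand), do not differ in the first 75 coding bases or in the whole 453-base overlap (GENCODE vM21, GRCm38). Rps20, on chromosome 4 (3831334 to 3835665, minus strand), and Gm4332, on chromosome 3 (119709516 to 119709861, plus strand), differ at 1 base in 346, which is shown in capitals. Rps27, on chromosome 3 (90212522 to 90213651, minus strand), and its paralog Rps27l, on chromosome 9 (66946086 to 66949516, plus strand), differ at 22 of the first 75 coding bases, also in capitals.
Rps13: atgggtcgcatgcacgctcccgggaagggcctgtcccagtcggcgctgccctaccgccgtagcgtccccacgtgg
Rps13-ps2: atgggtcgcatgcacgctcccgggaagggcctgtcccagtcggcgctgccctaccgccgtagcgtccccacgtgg
Rps20: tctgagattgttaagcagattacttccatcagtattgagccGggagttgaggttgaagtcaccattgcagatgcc
Gm4332: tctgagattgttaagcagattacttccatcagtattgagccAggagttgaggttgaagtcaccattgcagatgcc
Rps27: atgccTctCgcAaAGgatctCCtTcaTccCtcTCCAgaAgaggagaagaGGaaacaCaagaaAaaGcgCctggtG
Rps27l: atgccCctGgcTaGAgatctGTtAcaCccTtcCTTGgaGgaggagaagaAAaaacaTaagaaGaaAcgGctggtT

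For 18 members a copy entry had a higher mean than the member itself. Rps13 ranged from -1.74 to 1.80 over the libraries, and Rps13-ps2 from 9.06 to 9.69. Rpl27, a large subunit protein, ranged from -0.32 to 1.56, and Rpl27-ps3, which holds all of its coding windows, from 8.81 to 9.39. These members stood near the floor of the table while an intronless entry of the same sequence stood where other ribosomal protein genes did. Rps23, at the decoding centre, averaged 1.17 against 10.54 for Rps23-ps1, and Rps29 averaged 1.96 against 10.77 for Gm14303. Rpl10, Rpl31, Rpl15, Rps16, Rpl27a, Rpl10a, Rps12, Rps15a, Rpl5, Rps20, Rpl12, Rpl23 and Rpl36a were also among them. Copies took 28.7% to 31.2% of the linear signal of members and copies together in each library. A low value of such a member is no measure of how much of its mRNA was present, and differences were also computed with the linear values of the copies added to each member, an alternative chosen after seeing the data.

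**Figure D1:**
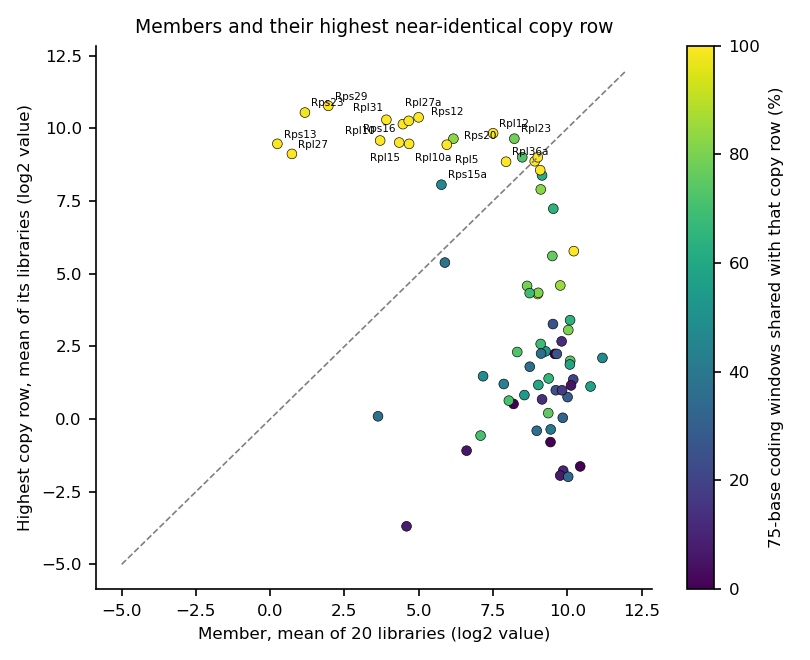
Each point is 1 member that has a copy entry with a value, with its mean log2 value over the libraries on the horizontal axis and the mean of its highest copy entry on the vertical axis. Points above the dashed line of equal values are the 18 members with a copy above their own entry, most of them named, and colour gives the percent of 75-base coding windows that the copy shares. Rps13, Rpl27, Rps23 and Rps29 lie at the far left at means of 0.24 to 1.96, with copies at 9.12 to 10.77.

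A pyrimidine tract of the kind found in TOP elements was present at the annotated start of some members and absent from others. RefSeq promoter sequences (GRCm38.p6) matched 64 of the 88 members. In the window from 15 bases before to 15 bases from the annotated start, a C followed by at least 5 pyrimidines (C or T) on the sense strand was found in 34 of the 64 (53.1%), against 22.3% of 26961 other genes. On the opposite strand it was found in 6.25% of members and 25.1% of other genes, and on the sense strand in 28.8% of 66 mitochondrial ribosomal protein genes, whose products serve the separate ribosome of mitochondria. The windows below are those of 8 members with values given here, with the longest tract in capitals, at chr4:86857353-86857382 (minus) for Rps6, chr7:141447636-141447665 (plus) for Rplp2, chr7:45128731-45128760 (minus) for Rpl13a, chr9:120571502-120571531 (plus) for Rpl14, chr14:24490663-24490692 (plus) for Rps24, chr3:28805493-28805522 (plus) for Rpl22l1, chr17:24720048-24720077 (plus) for Rps2 and chr5:115559452-115559481 (plus) for Rplp0, which has no such tract in this window.
Rps6: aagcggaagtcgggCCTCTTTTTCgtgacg
Rplp2: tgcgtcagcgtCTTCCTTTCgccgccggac
Rpl13a: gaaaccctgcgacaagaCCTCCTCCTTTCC
Rpl14: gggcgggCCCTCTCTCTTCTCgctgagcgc
Rps24: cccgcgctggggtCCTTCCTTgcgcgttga
Rpl22l1: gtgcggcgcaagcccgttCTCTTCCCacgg
Rps2: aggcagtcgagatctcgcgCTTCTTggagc
Rplp0: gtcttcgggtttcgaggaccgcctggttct

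A match is a description of these letters and not a mapped start, and annotated starts can miss the true cap by several bases. Of the tested members with a promoter entry, 8 of 32 with the tract and 11 of 28 without it were called higher in the maternal Ppara comparison below, beside 26.4% of all genes tested, with median log2 differences of 0.23 and 0.24.

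The mean level of the members varied from library to library, and whether single members rose and fell together was not tested. Over the 81 tested members with a value in every library, the mean log2 value was 7.58 to 7.80 in HetDam_HetFetus, 7.92 to 8.03 in KODam_HetFetus, 7.85 to 8.09 in KODam_KOFetus, 7.66 to 8.12 in FloxDam_FloxFetus and 7.88 to 8.16 in Cpt2LKODam_FloxFetus. HetDam_HetFetus lay below both other groups of its arm without overlap, while the ranges of the floxed groups overlapped. Among all genes tested, the median log2 difference from HetDam_HetFetus was also positive, at 0.14 for both KODam_HetFetus and KODam_KOFetus. The spread among floxed controls was as wide as the gap between the Ppara groups: FloxDam_FloxFetus replicates 1 and 2 stood at 8.12 and 8.05, and replicates 3 and 4, which are presumed littermates, at 7.81 and 7.66. The 8 tested members with no shared window gave the same order, with means of 9.09 ± 0.090 (SD, n = 4) in HetDam_HetFetus, 9.34 ± 0.019 in KODam_HetFetus and 9.35 ± 0.089 in KODam_KOFetus, beside 9.33 ± 0.20 in FloxDam_FloxFetus and 9.43 ± 0.13 in Cpt2LKODam_FloxFetus. Members held 6.13% ± 0.31 (SD, n = 4) of the summed linear signal in HetDam_HetFetus and 7.07% ± 0.45 in KODam_HetFetus. The median within-group SD of single members was 0.16 against 0.27 over all tested genes, and genes of like level were not compared. Rpl8 had one of the lowest, 0.084. The highest were 1.17 for Rps12l1, 0.98 for Rps13 and 0.90 for Rps3a2, entries near the floor.

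**Figure D2:**
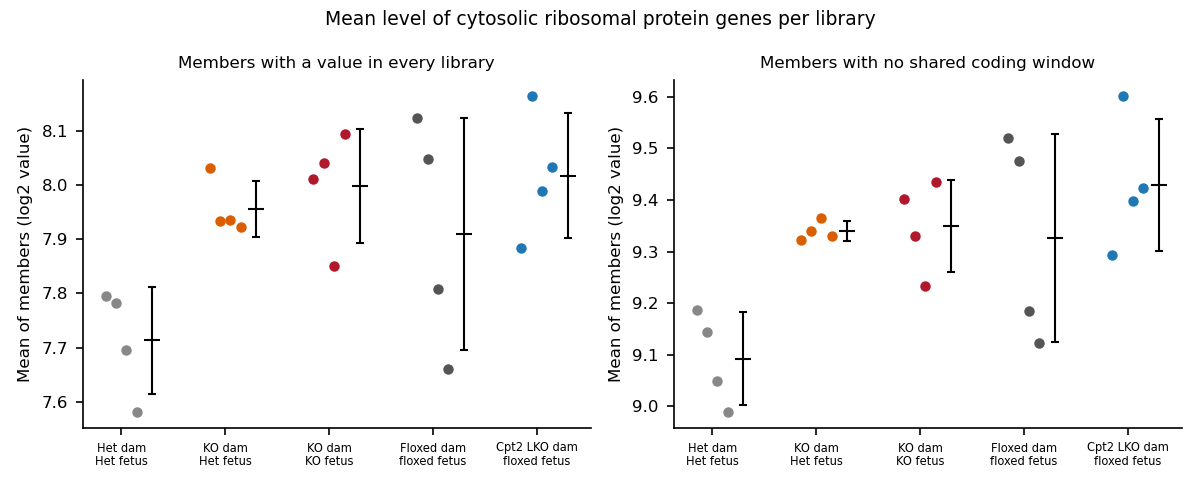
The vertical axis is the mean log2 value of the ribosomal protein genes in each library, by group, for the 81 tested members with a value in every library (left) and the 8 tested members with no shared coding window (right). Points are libraries and bars are the mean and SD of 4, and HetDam_HetFetus lies lowest in both panels, at 7.58 to 7.80 on the left, while FloxDam_FloxFetus spreads from 7.66 to 8.12.

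The maternal Ppara comparison set heterozygous fetuses of knockout dams against heterozygous fetuses of heterozygous dams, and asks what loss of the receptor in the mother does to the fetal liver. In the values as deposited, 23 of 84 tested members were higher and none were lower, with a median log2 difference of 0.24 (1.18-fold), positive for 78 of 84. Among all genes tested, 26.4% were called higher and 12.6% lower, and the median was 0.14, so the share of members called (27.4%) was near that of the table as a whole. The large subunit gave 12 of 48 called and a median of 0.24, and the small subunit 11 of 36 and 0.23. Calls are at an adjusted p under 0.05 (limma, Benjamini-Hochberg over all genes tested).

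Rplp0, Rplp1 and Rplp2 form the stalk of the large subunit, which recruits elongation factors. Rplp0 measured 10.08, 9.86, 9.93 and 9.88 in HetDam_HetFetus and 10.57, 10.70, 10.29 and 10.17 in KODam_HetFetus. The lowest library of the knockout dams lay above the highest of the heterozygous dams, and the difference was 0.50 (SE 0.13, 1.41-fold, adjusted p = 0.0058 by limma). Rplp1 rose by 0.38 (SE 0.15, adjusted p = 0.044) and Rplp2 by 0.27 (SE 0.092, adjusted p = 0.027), also without overlap. With presumed litters as a random block Rplp1 no longer passed (0.39, adjusted p = 0.057). Of 18 alternative settings, 3 did not call Rplp0, 14 did not call Rplp1 and 9 did not call Rplp2. Rpl8, a protein near the peptidyl transferase centre that shares no coding window with any copy, had the smallest adjusted p of all members. It measured 9.66, 9.60, 9.56 and 9.46 in HetDam_HetFetus and 9.98, 10.05, 9.89 and 9.92 in KODam_HetFetus, a difference of 0.39 (SE 0.082, 1.31-fold, adjusted p = 0.0015). Rpl11, which with Rpl5 can bind MDM2 and so stabilise p53 when ribosome assembly fails, ran from 8.89 to 9.15 and from 9.30 to 9.40, and rose by 0.30 (SE 0.10, adjusted p = 0.024). Rpl11 lost its call in 7 of the 18 settings. Rpl5 did not pass at 0.28 (SE 0.16, adjusted p = 0.17), with 5.35 to 6.14 and 5.94 to 6.05.

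On the small subunit, Rps2, which lies at the mRNA entry side, measured 8.47, 8.32, 8.72 and 8.53 in HetDam_HetFetus and 9.09, 9.09, 8.79 and 8.85 in KODam_HetFetus, a difference of 0.45 (SE 0.11, 1.36-fold, adjusted p = 0.0037). Rps3, which also has a role in DNA repair, measured 8.54, 8.37, 8.50 and 8.36 and then 8.82, 8.76, 8.82 and 8.80, a difference of 0.36 (SE 0.12, adjusted p = 0.022). Neither gene's groups overlapped. Rps2 lost its call in 2 of the 18 alternative settings and Rps3 in 6. Rpsa, also known as the laminin receptor precursor, rose by 0.36 (SE 0.11, adjusted p = 0.017), and Rps19, the gene most often mutated in human Diamond-Blackfan anaemia, rose by 0.29 (SE 0.11, adjusted p = 0.042). Neither passed with presumed litters as a random block (adjusted p = 0.055 for Rpsa and 0.059 for Rps19). Of the 18 settings, 7 did not call Rpsa and 13 did not call Rps19. Rps6, the substrate of the S6 kinases, was at 3.08 to 3.76 in HetDam_HetFetus and 3.36 to 3.94 in KODam_HetFetus, and did not pass (0.12, SE 0.20, adjusted p = 0.67). No copy entry lay above it, and with copies added it was still at 3.36 to 4.19 and 3.87 to 4.47. Why its entry lay far below most members was not tested, so its values may not measure its mRNA. The largest difference among the called members was that of Rps3a2, 1.94 (SE 0.57, adjusted p = 0.013), an entry annotated as a pseudogene whose libraries lay at -2.39 to 0.72 and 0.016 to 1.56 and overlapped. At such levels a fold on the log scale depends heavily on the lowest values.

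Of the other genes of interest, Rpl10 (0.10, adjusted p = 0.81), Rps27a (0.11, adjusted p = 0.58) and Rpl13a (0.23, adjusted p = 0.082) did not pass, nor did Rps4x (0.19, adjusted p = 0.10).

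Paralogs with an l in the name did not follow one direction. Rpl22l1 and Rpl22, a pair of related large subunit proteins, differed by 0.23 (SE 0.15, adjusted p = 0.23) and 0.26 (SE 0.13, adjusted p = 0.14), and their groups did not overlap although neither passed. Rps27l, a p53 target in human and mouse cells, differed by 0.017 (SE 0.16) and its parent Rps27 by 0.13 (SE 0.10), with adjusted p-values of 0.94 and 0.34. Rpl7l1, a paralog of Rpl7, had a difference of -0.38 (SE 0.16, adjusted p = 0.066), with 4.56 to 4.66 against 3.84 to 4.58. It was called lower after the libraries were rescaled (-0.51, adjusted p = 0.016). Of 18 alternative settings, 4 called it lower, and the difference ran from -0.51 to -0.093, with adjusted p up to 0.71 by limma. With copies added, it measured 4.03 and 3.84 in KODam_HetFetus replicates 1 and 2, the presumed littermates. In replicates 3 and 4 it measured 4.59 and 4.44.

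**Figure D3:**
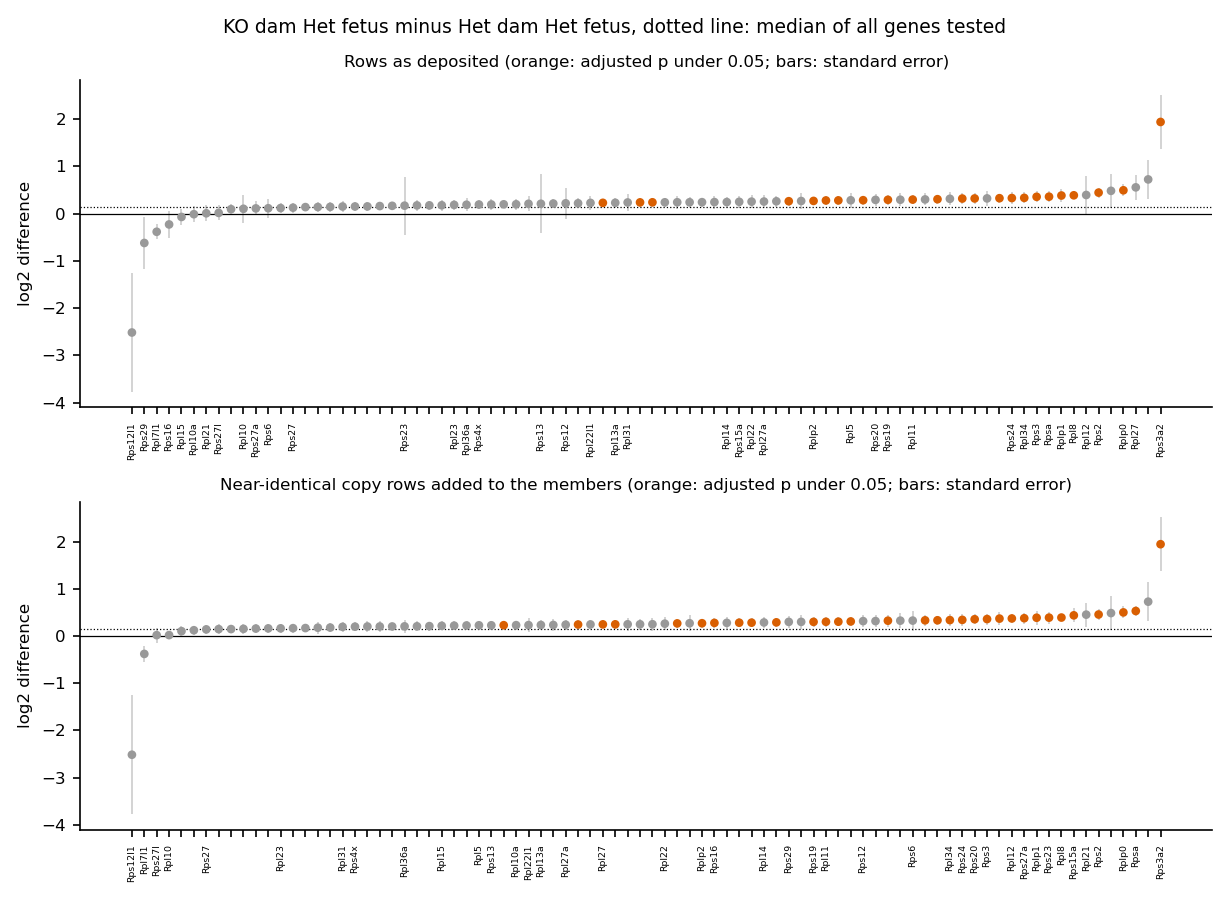
Each point is 1 tested member on the horizontal axis (members with values in the text are labelled), ordered by its log2 difference (vertical axis) in the maternal Ppara comparison, with its standard error as a bar; orange marks an adjusted p under 0.05. The upper panel uses entries as deposited (23 called) and the lower panel adds near-identical copies to the members (32 called), and the dotted line is the median of all genes tested, 0.14 in both.

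The size of the shift depended on how libraries were put on one scale. Among all tested genes 7129 differences were positive and 4670 negative in this comparison. Rescaling each library by a trimmed mean over tested genes moved the median of all genes in this comparison from 0.14 to 0.018, and the split of calls from 3117 higher and 1483 lower to 2218 higher and 2228 lower. The members' median fell to 0.11, and 2 members (Rps2 and Rps3a2) were called higher, beside 18.8% of all genes, and 1 lower. Relative to the median of all genes, the members' median was 0.096 before rescaling and 0.097 after it. This gap was 0.057 to 0.15 when 1 library was left out, and -0.0068 without KODam_HetFetus replicates 1 and 2, where the members' median was 0.22 and that of all genes 0.22. Leaving out single libraries also moved the count: it was 11, 12 and 7 without HetDam_HetFetus replicate 2, 3 or 4, and 7 and 12 without KODam_HetFetus replicate 1 or 2. It was 1 (Rpl8) without both of those KODam_HetFetus libraries, which are presumed littermates by the numbers in their labels, it was 13 with presumed litters as a random block, and again 1 (Rpl8) once 4 libraries were left out in which summed markers of another organ exceeded 10 times the median library. These were HetDam_HetFetus replicate 2 and Cpt2LKODam_FloxFetus replicate 2, with summed pancreas markers of 9.51 and 316.5 (5.12 in the next highest library), and HetDam_HetFetus replicate 4 and KODam_KOFetus replicate 2, with summed muscle markers of 147.2 and 200.6, on the linear scale. Shares of all genes called with libraries left out or litters blocked are not given here. The counts therefore do not show whether members lost calls more than other genes did.

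Blood cell markers also differed between these groups. Summed linear levels of 10 erythroid markers were 1707 ± 249 (SD, n = 4) in HetDam_HetFetus and 2388 ± 316 in KODam_HetFetus, with 2 of 10 called higher and none lower, a share of 20% beside 26.4% of all genes. The 11 neutrophil and myeloid progenitor markers summed to 6787 ± 1198 and 4121 ± 1002, with 8 of 11 called lower, beside 12.6% of all genes. The 10 hepatocyte markers, all tested and the defining genes of the labelled tissue, summed to 63413 ± 18627 and 51324 ± 11843, with 2 of 10 called lower, and 3 of 7 macrophage markers were called lower. Their part in the rise of ribosomal protein mRNAs was not tested.

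Adding copies to the members brought the hidden members into the same range as the others. In the maternal Ppara comparison 32 of 84 were then called higher (38.1%, beside 26.5% of all genes tested in that table), 82 of 84 differences were positive, and the median was 0.25. Of the 23 calls, 22 were kept. Of the 20 members whose windows are all shared, 1 was called as deposited and 7 with copies added, while 4 of the 8 tested members with no shared window were called in both forms. Rps23 changed from 0.17 (SE 0.61) to 0.39 (SE 0.13, adjusted p = 0.022), and Rpl12, part of the stalk base, from 0.40 (SE 0.41) to 0.37 (SE 0.10, adjusted p = 0.0084). Rpsa changed from 0.36 to 0.53 (SE 0.11, adjusted p = 0.0011), with 9.43 to 9.64 in HetDam_HetFetus and 9.92 to 10.26 in KODam_HetFetus. Rps12l1, an entry annotated as a pseudogene with blanks in some libraries, had the lowest difference, at -2.52. It had a value in only 1 library of HetDam_HetFetus (0.66) and in 2 of KODam_HetFetus (-2.65 and -1.07).

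The fetal Ppara comparison set knockout against heterozygous fetuses, all of knockout dams. No member was called in either direction, beside 0.822% of all genes tested, and the median log2 difference was 0.035. At an unadjusted p under 0.05, 3 members were higher and 1 was lower, beside 626 genes higher (5.3% of all genes tested) and 661 lower. Rpl5 had the smallest adjusted p, 0.23 by limma, at 0.52 (SE 0.16). It measured 5.94, 6.05, 6.05 and 6.05 in KODam_HetFetus and 6.67, 6.50, 6.32 and 6.69 in KODam_KOFetus, and the groups did not overlap. The Rpl5 entry is one of those with a higher copy, Gm15500, at a mean of 9.44 against 5.95. With copies added, Rpl5 lay at 9.49 to 9.68 (mean 9.58) in KODam_HetFetus and at 9.42 to 9.86 (mean 9.66) in KODam_KOFetus. The separation of the groups was not seen in these sums, which overlapped.

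Knockout fetuses of knockout dams were also set against heterozygous fetuses of heterozygous dams, which joins both losses and shares a group with each of the former comparisons. Here 21 of 84 members were called higher (25%, beside 17.4% of all genes tested) and none lower (7.31% of all genes), with a median of 0.27 against 0.14 for all genes. Of these, 13 were also called in the maternal comparison and 8 were not. Rpl5 had the largest difference among those called, at 0.81 (SE 0.16, 1.75-fold, adjusted p = 0.0023 by limma), with 5.80, 5.35, 6.14 and 5.67 in HetDam_HetFetus and no overlap with the knockout fetuses. With Gm15500 and its other copies added, it fell to 0.30 (SE 0.10, adjusted p = 0.035). Rpl22l1 (0.42, SE 0.15, adjusted p = 0.044), Rpl34 (0.42, SE 0.12, adjusted p = 0.016), Rps24 (0.42, SE 0.12, adjusted p = 0.021), a gene also mutated in human Diamond-Blackfan anaemia, and Rpl14 (0.41, SE 0.12, adjusted p = 0.017) followed, each without overlap.

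Of the stalk proteins, Rplp0 was called at 0.40 (SE 0.13, adjusted p = 0.030), and Rplp1 and Rplp2 were not, at 0.28 and 0.19 (adjusted p = 0.17 and 0.14). Rps3 (0.40, SE 0.12, adjusted p = 0.019), Rps19 (0.36, SE 0.11, adjusted p = 0.024), Rps4x (0.29, SE 0.093, adjusted p = 0.027) and Rpl22 (0.38, SE 0.13, adjusted p = 0.047) were called. With presumed litters as a random block, Rplp0 and Rpl22l1 (both adjusted p = 0.066), Rpl22 (adjusted p = 0.070) and Rps4x (adjusted p = 0.083) no longer passed. Rpl13a, a target of the GAIT translational silencing complex in human monocytes, did not pass at 0.23 (SE 0.10, adjusted p = 0.10), although its groups, 9.52 to 9.68 and 9.72 to 9.97, did not overlap. Rescaling by the trimmed mean left 1 member called higher (Rpl5, 0.69), beside 9.78% of all genes, changed the split of all calls from 2053 higher and 863 lower to 1154 and 1385, and kept the members' median 0.13 above that of all genes. The count was 9 and 4 without HetDam_HetFetus replicate 3 or 4, 6 and 5 without KODam_KOFetus replicate 1 or 4, 11 with presumed litters as a random block, and 0 once the libraries with high markers of other organs were left out. The share of all genes called in those fits is likewise not given here.

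With copies added, 32 of 84 members were called higher in this comparison (38.1%, beside 17.4% of all genes tested in that table), and all 21 earlier calls were kept. Rps27a, which is made as a fusion with ubiquitin, turned from -0.040 (SE 0.15, adjusted p = 0.87) to 0.52 (adjusted p = 0.0047). Its own entry spanned 8.77 to 9.24 in HetDam_HetFetus and 8.89 to 9.01 in KODam_KOFetus, and the sums 9.45 to 9.81 and 10.04 to 10.25, which do not overlap. The small subunit gene Rps15a changed from 0.31 to 0.66 (SE 0.15, adjusted p = 0.0042), and the large subunit gene Rpl21 from 0.085 to 0.81 (SE 0.26, adjusted p = 0.028). The Rpl21 sum rests on 2 copy entries that were low in 3 libraries. Rpl21-ps8 measured 0.68 and 1.29 in HetDam_HetFetus replicates 3 and 4 and 2.76 in KODam_HetFetus replicate 1, and 5.67 to 6.37 in the other 17 libraries. Gm12411 measured 0.52, -1.62 and 2.14 in the same 3 libraries and 5.16 to 5.98 elsewhere, while Rpl21 itself, at 6.09, 5.89 and 6.41 in those 3, lay above the other libraries of their groups (5.70 and 5.72, and 5.45 to 5.80).

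**Figure D4:**
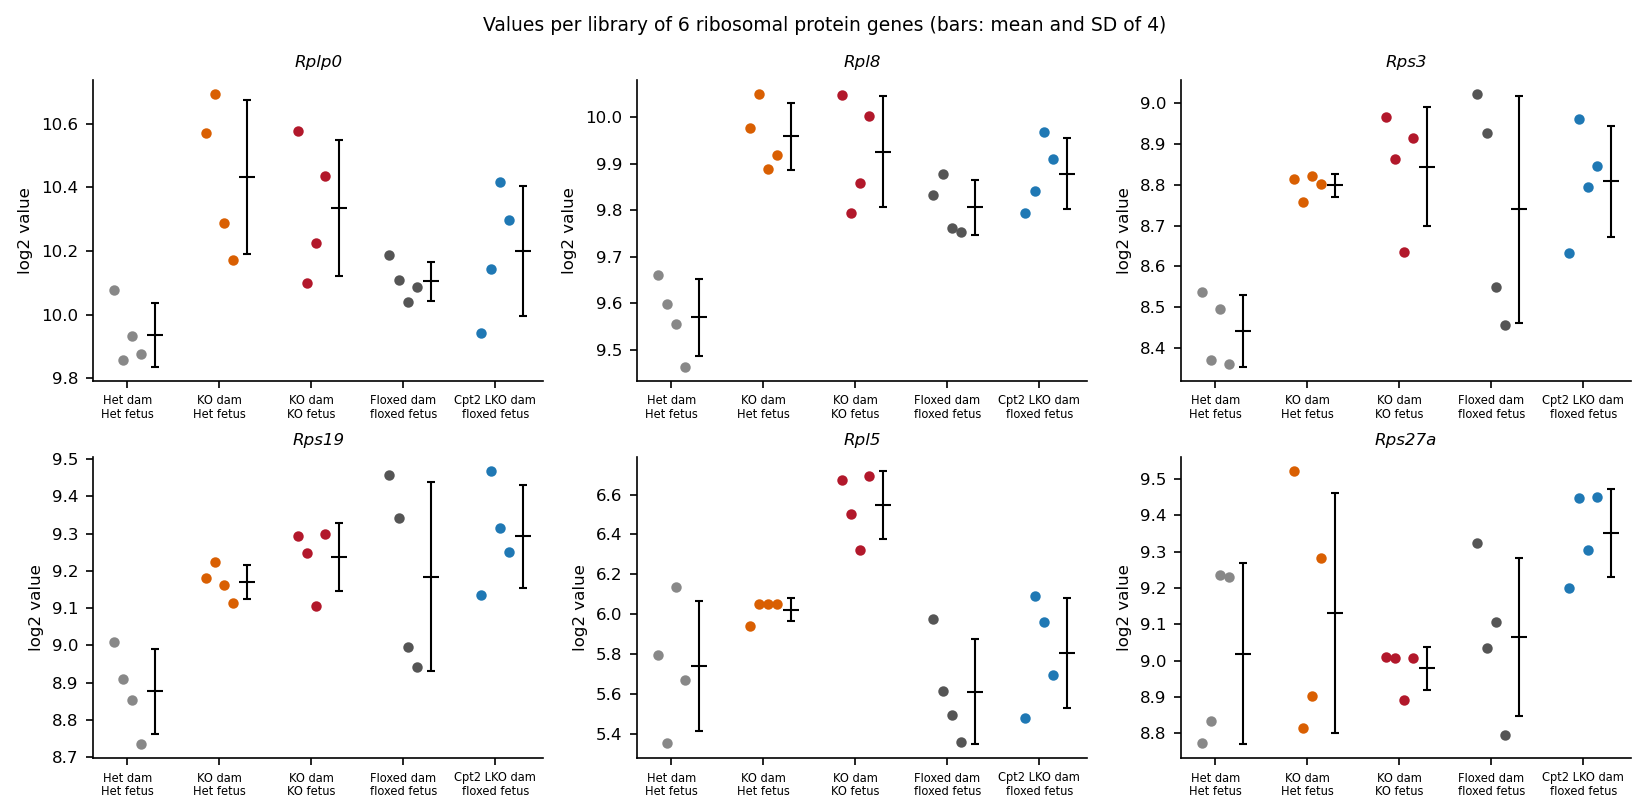
Log2 values (vertical axes) of Rplp0, Rpl8, Rps3, Rps19, Rpl5 and Rps27a in every library, by group on the horizontal axes, with the mean and SD of 4 as bars. Entries are as deposited, without copies added. HetDam_HetFetus lies below KODam_HetFetus without overlap for Rplp0, Rpl8, Rps3 and Rps19, Rpl5 is highest in KODam_KOFetus (6.32 to 6.69), and Rps27a overlaps among the groups of the Ppara arm.

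The maternal liver Cpt2 comparison asks the same of dams whose livers cannot oxidise long-chain fatty acids. No member was called in either direction, nor was any gene of the table (0% of all genes tested). At an unadjusted p under 0.05, 1 member was higher, Rpl30, at 0.32 (SE 0.13, adjusted p = 0.39 by limma). Among all genes, 653 were higher (5.53%) and 658 lower at that threshold. The members' median was 0.10, positive for 74 of 84, against -0.0068 for all genes. Leaving out 1 library gave medians from 0.027 (without FloxDam_FloxFetus replicate 4) to 0.16 (without replicate 1), and 0.065 and 0.062 without FloxDam_FloxFetus replicate 3 or Cpt2LKODam_FloxFetus replicate 2. Rplp0 differed by 0.095 (SE 0.13), Rpl8 by 0.072 (SE 0.082), Rps3 by 0.069 (SE 0.12) and Rps19 by 0.11 (SE 0.11). Each of these 4 differences is smaller than its standard error, and the groups overlapped for all 4.

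The difference of the maternal effects, Ppara less Cpt2, was tested directly. No member and no gene of the table was called (0%). At an unadjusted p under 0.05, 5 members were higher and none lower, beside 1829 genes higher (15.5% of all genes tested) and 514 lower. The members' median was 0.12 against 0.15 for all genes, and the smallest adjusted p of a member was 0.17, for Rpl8 at 0.32 (SE 0.12). Measured from the median of all genes, the members stood 0.096 higher with the maternal Ppara knockout and 0.11 higher with the maternal liver Cpt2 knockout. Neither gap was stable: the first was -0.0068 without the KODam_HetFetus littermates, and the second was 0.012 without FloxDam_FloxFetus replicate 4 and 0.18 without replicate 2. A difference that misses the threshold does not show that the effects are alike. After rescaling by the trimmed mean the median of the difference was -0.017, against 0.12 before it, so its direction depended on the scaling.

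The control groups, HetDam_HetFetus less FloxDam_FloxFetus, come from separate arms and differ in genotype, and no member was called, beside 0.136% of all genes tested. At an unadjusted p under 0.05, 23 members were lower and none higher, beside 1861 lower and 85 higher (0.72%) among the 11800 genes tested. The members' median was -0.17 with 75 of 84 negative, and that of all genes was -0.15. The smallest adjusted p was 0.14 by limma, for Rps3a2, and Rpl8, at -0.24 (SE 0.082), had 0.19. After rescaling, the members' median was -0.024. The mean of members in KODam_HetFetus, 7.96 ± 0.051 (SD, n = 4), lay within the range of FloxDam_FloxFetus.

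**Figure D5:**
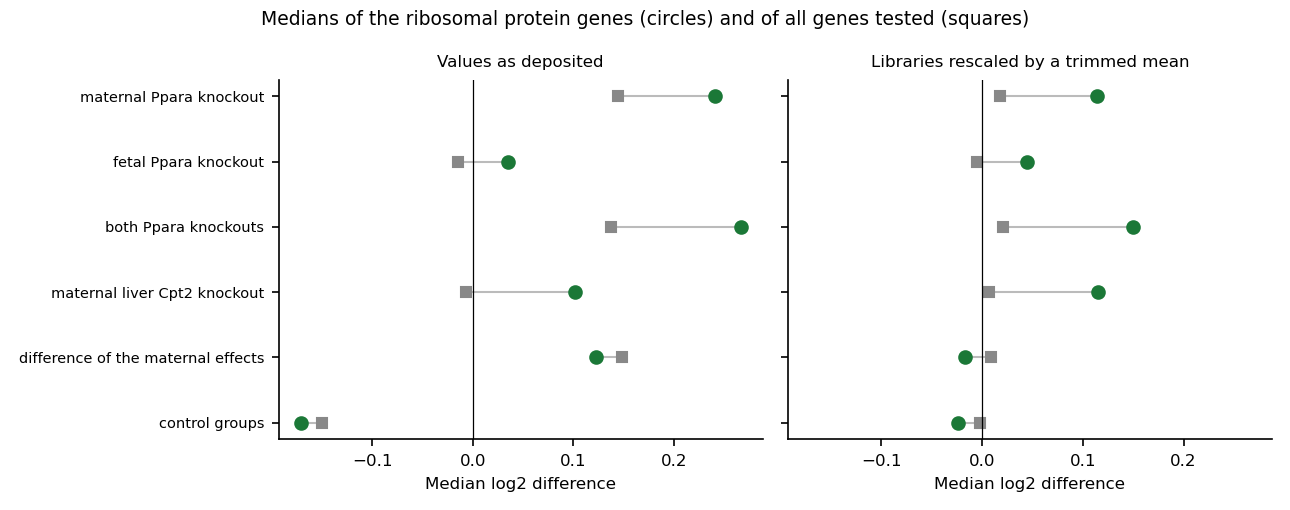
Median log2 differences (horizontal axis) of the 84 tested members (circles) and of all genes tested (squares) in the 6 comparisons (vertical axis), for values as deposited (left) and after rescaling by a trimmed mean (right). On rescaling, the maternal Ppara medians go from 0.24 to 0.11 for members and from 0.14 to 0.018 for all genes, those with both knockouts also shift left, and the fetal ones shift right, to 0.045 for members.

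Genes that make or use ribosomes were described from lists of known roles, beside 26.4% of all genes called higher and 12.6% lower in the maternal Ppara comparison, and 18.8% higher after rescaling. The shares called higher before and after rescaling were 44% and 20% for biogenesis factors, 50% and 42.9% for RNA polymerase I genes, 53.3% and 36.7% for initiation factors and 28.6% and 0% for elongation factors, so those of biogenesis factors after rescaling and of elongation factors before it were near the share of all genes. In the maternal Ppara comparison, 22 of 50 ribosome biogenesis factors were called higher and none lower, with a median of 0.40, and after rescaling 10 of 50 were, with a median of 0.27. The 3 with the smallest p were Lsg1 (0.70, SE 0.12), a cytoplasmic GTPase of large subunit maturation, Dimt1 (1.06, SE 0.18), a dimethylase of small subunit RNA, and Nmd3 (0.82, SE 0.17), the export adaptor of the large subunit. Of 14 genes of RNA polymerase I transcription 7 were higher, with a median of 0.46, and 6 after rescaling. They were led by the polymerase subunit gene Twistnb (1.00, SE 0.17) and by Rrn3 (0.56, SE 0.12), its initiation factor. Of 30 translation initiation factors 16 were higher and 1 lower, with a median of 0.38, and 11 and 1 after rescaling, and Eif4e, which binds the cap, was higher by 0.66 (SE 0.12) and Eif6, which keeps free large subunits apart from small ones, by 0.55 (SE 0.11).

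The medians of these 3 lists lie above that of the ribosomal proteins, 0.24, and the difference was not tested. Of 7 elongation factors, 2 were higher (Eef1a1 at 0.48 and Eef1b2 at 0.33, both with TOP mRNAs) and 1 was lower, Eef2k, the kinase that inhibits elongation, at -0.64 (SE 0.19). Of 6 other genes with a known TOP element, 1 was called, Nap1l1, at 0.45 (SE 0.087). Of 22 genes of MYC and mTOR control 8 were higher and 1 was lower, Deptor, an inhibitor of mTOR, at -1.14 (SE 0.28), and after rescaling 3 were higher and 4 lower. Of 12 tested genes of the p53 list 6 were higher, among them Trp53inp1 (1.39, SE 0.28) and Mdm2 (0.46, SE 0.11), and Trp53 itself was lower, by -1.08 (SE 0.21). Of 74 mitochondrial ribosomal proteins 9 were higher and 8 lower, with a median of 0.096, and after rescaling 6 and 15, with a median of -0.030. Before rescaling, 16.7% of the other TOP genes, 36.4% of the MYC and mTOR genes, 50% of the p53 list and 12.2% of the mitochondrial ribosomal proteins were higher. The share of all genes was 26.4%. After rescaling, all genes tested had about as many falls as rises, as given above. Counts of the p53 list after rescaling are not given here.

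Other proteins of the cytosolic ribosome lie outside the naming rule. Rack1, the scaffold on the head of the small subunit, rose by 0.27 in the maternal comparison (SE 0.093, adjusted p = 0.030 by limma) and by 0.30 with both knockouts (adjusted p = 0.025). None of 5 such genes, Rack1 and Rpl3 included, was called higher in either comparison after rescaling. Before it, 2 of 5 were called higher in each (40%, beside 26.4% and 17.4% of all genes), and Rpl3 was lower with both knockouts (-3.62).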

How the data were processed

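Poly(A) RNA of 20 fetal livers was sequenced as stranded single 75-base reads, per the labels' protocols. The submitters' processing notes name bcl2fastq 2.17.1.14, Partek 7.0 and GRCm38.p6; the aligner, how reads were counted and whether strand was used were not given in the sources used here. The deposited values are on a log2 scale, quantile-normalized by the authors over the values present, with blanks for no value; base 2 was taken from the values, and the depth of each library is unknown. Such scaling gives levels relative to the other genes of a library, not amounts, so a change in some genes can shift the values of others. Libraries had a value for 23334 to 26255 genes, and how this affected the scaling was not tested.

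Genes with a linear value of at least 1 in at least 4 libraries were tested with limma 3.58.1 in R 4.3.3: 1 fit with a mean per group, a trended prior (15 residual and 4.09 prior degrees of freedom), two-sided tests and Benjamini-Hochberg adjustment over all genes tested. In all, 6 comparisons were made. The test was checked on simulated data. Copies were found by name or with blastn 2.17.0 against GENCODE vM21 transcripts (copy transcript at most 3 times the coding length). The trimmed mean left out a share of 0.3 at each end of the deviations from gene means, on the log2 scale. Alternatives were another quantile normalization, a pseudocount of 4, no filter, fewer groups, litter and replicate blocks, and left-out libraries.

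Named genes were the 5 called members with the largest change in each direction, a panel of stalk, assembly and disease genes, and paralogs with their parents; Rpl8, Rpl12, Rps2, Rps23, Rps15a, Rpl21, Rpl7l1 and the Rpl3 pair were also named after their values were seen where the rule did not name them. Members and lists were chosen with earlier results of these data known. Separate fetuses are the replicates, and some share a litter. Some members are not reported here by name.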

Additional observations from a re-analysis of the deposited data

Results flagged for a closer look

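In 9 of 149 groups of 4 libraries tested, 1 library stood apart from the other 3 by Dixon's criterion. Chance marks about 1 in 20 groups, so the number of such groups is near what chance gives. Low libraries in KODam_HetFetus were replicate 4 for Rps3a2 (0.016, next 1.30), replicate 1 for Rpl5 (5.94, next 6.05) and replicate 2 for Rps27 (10.10, next 10.25). In the other groups, low libraries were KODam_KOFetus replicate 3 for Rps27a (8.89, next 9.01), Cpt2LKODam_FloxFetus replicate 1 for Rps4x (10.03, next 10.17) and HetDam_HetFetus replicate 4 for Rpl14 (8.72, next 8.89). High libraries were Cpt2LKODam_FloxFetus replicate 2 for Rpl14 (9.43, next 9.10), HetDam_HetFetus replicate 2 for the untested Rpl3l (-2.50, next -3.53), and KODam_HetFetus replicate 1 for the mean of members (8.03, next 7.94).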

How the results depend on the processing

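The members' median kept its sign under every alternative run in 5 of the 6 comparisons; after rescaling by a trimmed mean it was -0.017 for the difference of the maternal effects, which changed sign, and -0.024 for the control groups, which did not. In the maternal Ppara comparison, members called higher numbered 2 after that rescaling, 6 after quantile normalization of the tested genes, 9 without a filter, 13 with litters as a random block, and 1 both without the KODam_HetFetus littermates and without the libraries with high markers of other organs, and 1 member (Rpl7l1) was called lower after either normalization. With both knockouts the counts were 1, 12, 8 and 11 for the first 4, 0 without those libraries and 32 with copies added, where Rps27a reversed to 0.52. The cause was not tested. Beside these counts, 18.8% and 9.78% of all genes were called higher after the trimmed-mean rescaling in the maternal and both comparisons. Shares of all genes for most other alternatives are not given here. Those counts do not show whether members lost calls more than other genes did. Leaving out 1 library gave 7 to 22 members higher and 0 to 1 lower in the maternal comparison (1 lower without KODam_HetFetus replicate 3 or 4), and 4 to 21 higher and 0 to 1 lower with both knockouts (1 lower without HetDam_HetFetus replicate 2). Replicate numbers did not pair the samples: same-number correlations ran from -0.38 to 0.48, and 4 of 20 libraries correlated best with their own number. With the replicate block, 23 and 20 members were called higher in the maternal and both comparisons. The depth is unknown, so counting error could not be given.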
